A study of Homo sapiens with 9 samples.

Results

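Keratins are the intermediate filament proteins of epithelial cells. The keratin genes examined here are all those that the array's annotation names KRT followed directly by a number, with keratin-associated protein genes and pseudogenes left out. They came to 44 genes, read by 56 probe sets, among 19775 genes and 54613 probe sets on the arrays. Of these genes, 24 encode type I keratins and 20 type II keratins, and 9 were read by more than 1 probe set. The RefSeq table of GRCh38.p14 lists 55 protein-coding keratin genes, and the 11 with no probe set of their own in the annotation, among them KRT6A, KRT6B and KRT17, were not analysed here. A further probe set that the annotation shares between KRT34 and another locus was left out, and KRT10-AS1, a non-coding antisense transcript whose name also begins in this way, is given apart.

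The RNA came from HuCCT1, a human line grown from a bile duct cancer (cholangiocarcinoma) and kept in RPMI-1640 medium with fetal bovine serum. One group of 4 arrays (empty vector) held cells transfected with a vector without an insert. The other group of 5 arrays (YAPS127A) held the same line given a vector for the S127A mutant of YAP1. YAP1 is a transcriptional co-activator of the Hippo pathway, and this mutant cannot be phosphorylated at a serine that holds the protein in the cytoplasm. The comparison asks which transcripts differ once the active form is overexpressed. The sources used here do not say whether the cells were a clone or a pool, how long they carried the vector, or whether the numbered samples were separate cultures. A p-value below thus reflects just the scatter among the arrays, possibly technical, and precision is limited by their number. In such bulk RNA, fewer cells of a type and less RNA per cell cannot be told apart.

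A keratin filament is built from pairs of 1 type I and 1 type II protein, so each epithelium expresses matching members of both types. Simple epithelia such as the bile duct make KRT8 and KRT18, with KRT7 and KRT19 as the additional keratins that mark cholangiocytes. Stratified epithelia make KRT5 and KRT14 in their basal layer, KRT4 and KRT13 above it in mucosa, and KRT1 and KRT10 above it in skin. The remaining keratins are largely those of hair and of its sheath. Type I genes lie together on chromosome 17 and type II genes on chromosome 12, where KRT18 is the only type I gene. In these data 23 keratin genes lay on chromosome 17 and 21 on chromosome 12, and each gene was described by the probe set with its highest mean signal, called the brightest here.

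The bile duct keratins stayed bright with YAPS127A, while some keratins of other epithelia moved in both directions. KRT80, KRT8, KRT4, KRT13 and KRT14 rose, and KRT222, KRT23, KRT15, KRT10, KRT5 and KRT20 fell. At the brightest probe sets the differences ran from -2.72 for KRT222 to +0.67 for KRT80 on the log2 scale. In all, 11 of 44 keratin genes changed in limma with Benjamini-Hochberg adjustment over all probe sets, 5 higher and 6 lower. Among all genes 28.7% changed, 14.5% higher and 14.2% lower, so the share of keratins that changed (25%) lay near the background. The median difference was 0.02 over the keratins and 0.00 over all genes, and the median size of a difference was 0.10 and 0.13. In 12 keratin genes, the 11 called and KRT7, no array of one group overlapped the other group, against 28.3% of all genes. By probe set, 15 of 56 were called (26.8%), beside 23.9% of all probe sets.

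**Figure D1:**
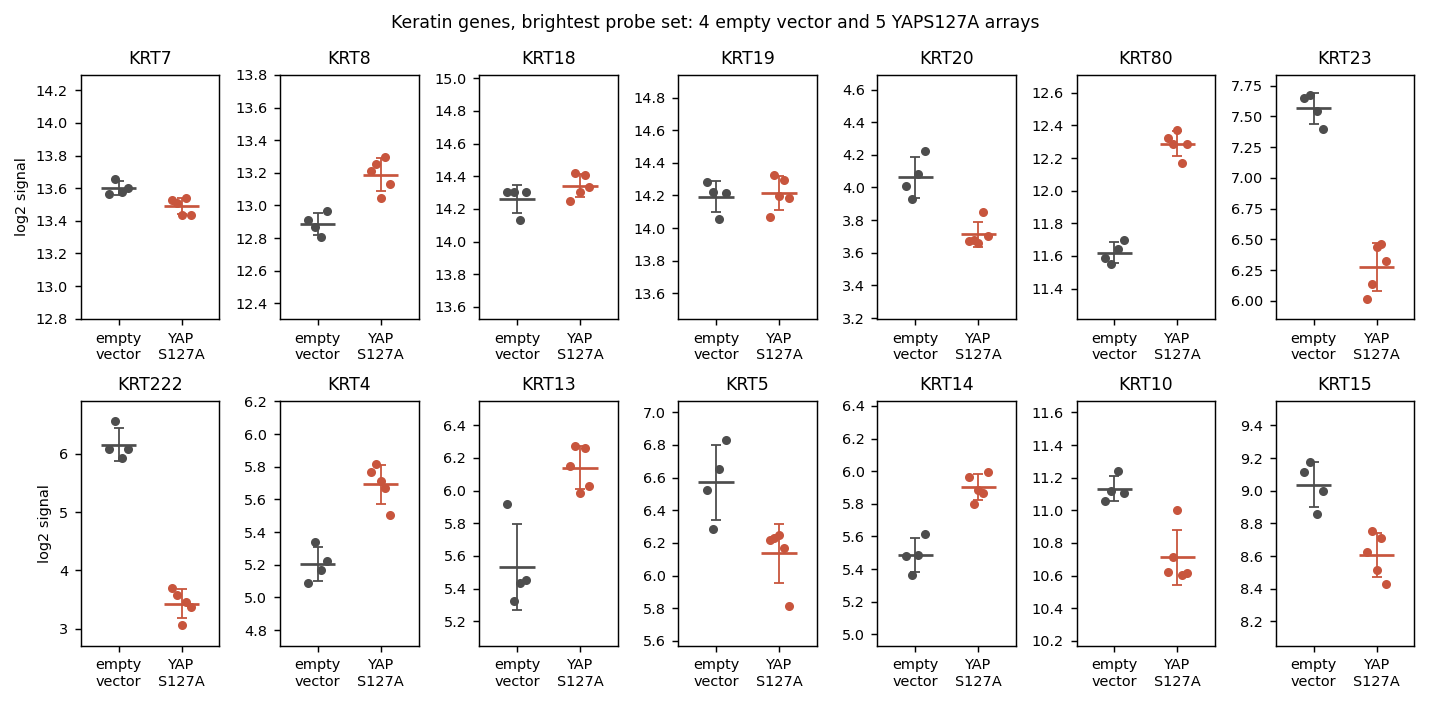
Log2 signal of the brightest probe set of 14 keratin genes on each array, with the mean (line) and SD (bars) of 4 empty vector arrays (grey) and 5 YAPS127A arrays (red). Vertical axes do not start at 0, and those of KRT23 and KRT222 span a wider range than the rest. KRT18 and KRT19 overlap between the groups, and the 11 genes called do not.

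Most keratin genes gave little signal. For 26 of the 44 both group means lay at or below 5.96, the median of all probe sets. Of these dim genes 3 were called (11.5%), against 7.2% of all genes at or below that level. Of the 18 brighter keratin genes 8 were called (44.4%), against 41.2% of all genes above it. The dim genes that were called are KRT4, KRT14 and KRT20, and their fold changes depend on the background in the signal.

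Among the simple epithelial keratins KRT8 rose, KRT20 fell, and KRT7, KRT18 and KRT19 did not pass. KRT8, the type II keratin of every simple epithelium, had log2 signals of 12.91, 12.87, 12.81 and 12.97 with the empty vector and 13.21, 13.25, 13.05, 13.30 and 13.13 with YAPS127A. Each YAPS127A array lay above each empty vector array. The rise was 0.30 (SE 0.07, adjusted p = 0.00741 in limma), or 1.23-fold. The KRT8 probe set carries the suffix _x_at, which the array's maker gives to probe sets that may read similar transcripts. Both probe sets named for the pseudogene KRT8P12 differed less, by +0.07 and +0.18, and neither passed (adjusted p = 0.528 and 0.214).

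KRT18, the type I partner of KRT8, gave 14.31, 14.30, 14.13 and 14.30 with the empty vector and 14.25, 14.42, 14.31, 14.41 and 14.34 with YAPS127A. The groups overlapped, and the difference of +0.08 had a 95% interval of -0.06 to 0.23 (adjusted p = 0.437). The only probe set of KRT18 also carries the suffix _x_at. KRT19, the smallest keratin and a standard bile duct marker, was read at 14.28, 14.22, 14.06 and 14.22 and then at 14.07, 14.33, 14.19, 14.30 and 14.19. Its difference had an interval of -0.14 to 0.18, and at its other probe set the interval was -0.19 to 0.19. At both probe sets of KRT19 a 1.5-fold change of signal in either direction lies outside the interval. KRT18 and KRT19 lie near the top of the scale, where the highest value was 14.96. Whether signals there still follow the amount of transcript was not tested.

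KRT7, the second keratin of the bile duct, lay slightly lower at all 4 of its probe sets, and none passed. The brightest gave 13.57, 13.66, 13.57 and 13.60 with the empty vector and 13.53, 13.51, 13.44, 13.54 and 13.44 with YAPS127A. These values do not overlap, although the difference had an interval of -0.24 to 0.01. The other probe sets differed by -0.16, -0.15 and -0.19. With trend and robust eBayes settings the brightest was called (-0.11, adjusted p = 0.0340).

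KRT20, a keratin of intestinal and urothelial epithelium, gave 4.01, 3.93, 4.08 and 4.23 with the empty vector and 3.67, 3.68, 3.66, 3.85 and 3.70 with YAPS127A. All of these values lie below 4.26, the lower quartile of all probe sets. The fall of 0.35 (SE 0.07, adjusted p = 0.00460 in limma) is therefore a difference between values near the lower end of the scale.

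Several epithelial keratins outside the classical pairs moved further. KRT80, a type II keratin found in many epithelia, had log2 signals of 11.59, 11.55, 11.64 and 11.70 with the empty vector and 12.32, 12.29, 12.37, 12.17 and 12.29 with YAPS127A. All 5 YAPS127A arrays lay above all 4 empty vector arrays. It rose by 0.67 (SE 0.06, adjusted p = 1.48e-05), or 1.59-fold.

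KRT23, a type I keratin, went from 7.65, 7.68, 7.54 and 7.40 to 6.02, 6.14, 6.44, 6.46 and 6.33. It fell by 1.29 (SE 0.10, adjusted p = 3.37e-06) and was 2.45-fold lower, with a clear gap between the groups. KRT222, a keratin-like gene at the edge of the type I cluster, had the deepest fall. Its brightest probe set read 6.08, 6.56, 5.92 and 6.08 with the empty vector and 3.69, 3.58, 3.06, 3.46 and 3.37 with YAPS127A. That difference of -2.72 (SE 0.14, adjusted p = 1.31e-07) ends below the lower quartile, so its size depends on the background. The other probe set of KRT222 read 2.81 ± 0.37 (SD, n = 4) and 2.18 ± 0.13 (SD, n = 5) and fell by 0.63 (adjusted p = 0.00805), and the mean over both was at -1.68. The remaining member of this class, KRT24, differed by -0.11 and did not pass.

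**Figure D2:**
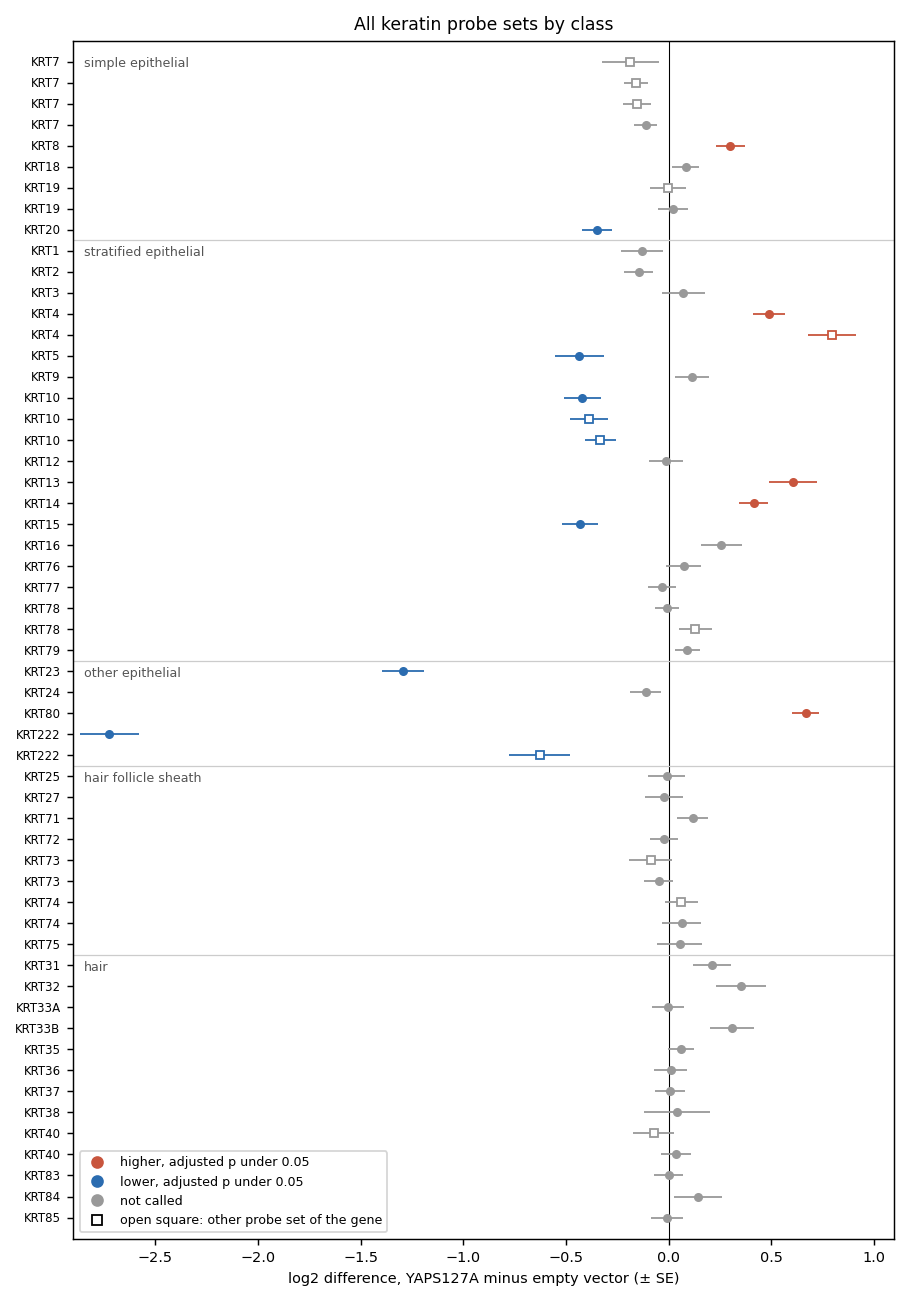
Log2 difference (YAPS127A minus empty vector, ± SE) of all 56 keratin probe sets, grouped by class. Filled circles are the brightest probe set of a gene and open squares its other probe sets. The brightest probe sets of the hair and sheath keratins lie between -0.05 and +0.35, and the called genes belong to the 3 epithelial classes.

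Of the 16 keratin genes of stratified epithelia, 3 rose, 3 fell and 10 did not pass. That is 37.5% called, against 28.7% of all genes, 41.2% of those above the median of all probe sets and 7.2% of those at or below it. KRT4 and KRT13, the pair of mucosal stratified epithelium, both rose. KRT4, the type II member, gave 5.09, 5.34, 5.17 and 5.22 and then 5.77, 5.82, 5.71, 5.67 and 5.50. Its rise was 0.49 (SE 0.08, adjusted p = 0.000764), and at its dimmer probe set it was 0.80 (adjusted p = 0.000404). KRT13, the type I member, read 5.92, 5.33, 5.43 and 5.45 with the empty vector and 6.15, 6.27, 5.98, 6.26 and 6.03 with YAPS127A. The groups lay apart by 0.07, since empty vector replicate 1 stood above the other empty vector arrays. The rise of KRT13 was 0.61 (SE 0.12, adjusted p = 0.00231), from a level below the median of all probe sets to one just above it.

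The basal pair moved in opposite directions. KRT5, the type II keratin of basal cells, read 6.53, 6.28, 6.65 and 6.83 with the empty vector and 6.22, 6.23, 6.25, 6.17 and 5.81 with YAPS127A. The groups lay apart by 0.04 only, and the fall was 0.44 (SE 0.12, adjusted p = 0.0189). Its call was lost without empty vector replicate 3 (-0.41, adjusted p = 0.0530), without empty vector replicate 4 (-0.35, adjusted p = 0.0633), and with the replicate block (-0.36, adjusted p = 0.0568). KRT14, the type I keratin of basal cells, rose from 5.48, 5.37, 5.48 and 5.62 to 5.97, 5.80, 5.88, 5.86 and 5.996. That is a rise of 0.42 (SE 0.07, adjusted p = 0.000987), with both group means below the median of all probe sets.

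KRT10 and KRT15, type I keratins of the upper and the basal layers of stratified epithelium, fell at higher signal. KRT10 read 11.06, 11.12, 11.24 and 11.11 with the empty vector and 10.62, 10.72, 11.005, 10.60 and 10.61 with YAPS127A, where replicate 3 stood highest. All 3 of its probe sets fell, by 0.42 (SE 0.09, adjusted p = 0.00450), 0.33 (adjusted p = 0.00673) and 0.39 (adjusted p = 0.00865), with no overlap between groups at any of them. KRT15 read 9.12, 9.17, 8.86 and 8.999 and then 8.62, 8.75, 8.51, 8.71 and 8.43, a fall of 0.43 (SE 0.09, adjusted p = 0.00369). The antisense transcript KRT10-AS1, which starts within KRT10 on the opposite strand, read 11.90, 11.88, 11.85 and 11.91 and then 11.62, 11.56, 11.66, 11.54 and 11.58. It fell by 0.29 (SE 0.06, adjusted p = 0.00219). The sources used here do not say which strand these probe sets read, so signals of KRT10 and its antisense partner may not be separate measurements.

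The promoters of KRT10, KRT5 and KRT4 are printed because these members changed and RefSeq gives a start site for them, with KRT5 and KRT4 moving in opposite directions from the same chromosome. Each shows the 250 bases before the start in GRCh38.p14, on the minus strand, from chr17:40822615-40822864, chr12:52520395-52520644 and chr12:52814117-52814366 in that order. Capitals mark a TATAAA box, the only match in these 3 to the motifs searched.
KRT10: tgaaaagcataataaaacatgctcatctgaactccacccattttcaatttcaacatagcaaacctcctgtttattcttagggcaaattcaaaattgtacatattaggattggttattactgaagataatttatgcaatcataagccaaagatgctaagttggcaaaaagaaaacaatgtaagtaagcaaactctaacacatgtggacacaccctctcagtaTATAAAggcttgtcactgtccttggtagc
KRT5: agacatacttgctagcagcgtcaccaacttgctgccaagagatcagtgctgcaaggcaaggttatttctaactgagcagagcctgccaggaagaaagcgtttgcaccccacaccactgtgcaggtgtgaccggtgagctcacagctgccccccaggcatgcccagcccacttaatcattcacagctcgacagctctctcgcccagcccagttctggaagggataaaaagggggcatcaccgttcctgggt
KRT4: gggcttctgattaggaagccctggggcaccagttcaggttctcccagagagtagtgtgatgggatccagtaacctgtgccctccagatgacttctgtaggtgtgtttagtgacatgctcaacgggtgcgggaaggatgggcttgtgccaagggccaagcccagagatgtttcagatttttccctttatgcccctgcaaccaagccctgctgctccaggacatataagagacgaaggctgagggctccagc

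An entry was found for 29 of the 44 keratin genes, 5 of them called. A single start site was taken for each gene, and any other start was not searched. On both strands of these 250 bases, 15 of the 29 (51.7%) held TATAAA, against 11.1% of 27305 promoters of the same length. In 13 of them it began 25 to 35 bases before the start, the place of a classical TATA box. GGAATG, the core letters bound by TEAD factors through which YAP1 acts, stood in 3 of 29 keratin promoters (10.3%) and in 11.9% of all. GGGCGG, a GC box, stood in 4 (13.8%) against 42.3%, and TGANTCA, an AP-1 site, in 0 against 6.6%. In the 5 called genes (KRT10, KRT20, KRT4, KRT5 and KRT8) the TEAD, AP-1 and GC box letters were not found, and TATAAA was found in KRT10 alone. Variants of TATAAA were not searched, so the other genes may still hold a TATA box. These counts cover only this window and say nothing about binding.

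Known filament partners were then set side by side, as type II minus type I log2 signal on each array, which measures unequal change and not a level. The 4 pairs were chosen after the values were seen, and p-values are from 2-sided exact permutation of the group labels, for which 0.00794 is the smallest possible. KRT5 lost 0.85 relative to KRT14, with no overlap between the groups. KRT5 fell and KRT14 rose, each without overlap, so the result of this test was fixed in advance (exact p = 0.00794, adjusted p = 0.0317 over 4 pairs). It adds nothing to those 2 calls. KRT8 gained 0.22 relative to KRT18 (exact p = 0.0159, adjusted p = 0.0317), again without overlap. Both genes are read by _x_at probe sets, and KRT18 lies near the top of the scale. KRT4 rose by 0.49 and KRT13 by 0.61, and their difference changed by -0.12 with overlapping arrays (exact p = 0.516). That difference had an SD of 0.35 over the empty vector arrays, and at its dimmer probe set KRT4 rose by 0.80. KRT1, a dim gene at 4.39 ± 0.23 (SD, n = 4) and 4.26 ± 0.09 (SD, n = 5), changed by +0.29 relative to KRT10 (exact p = 0.0794, adjusted p = 0.106), with overlapping arrays.

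**Figure D3:**
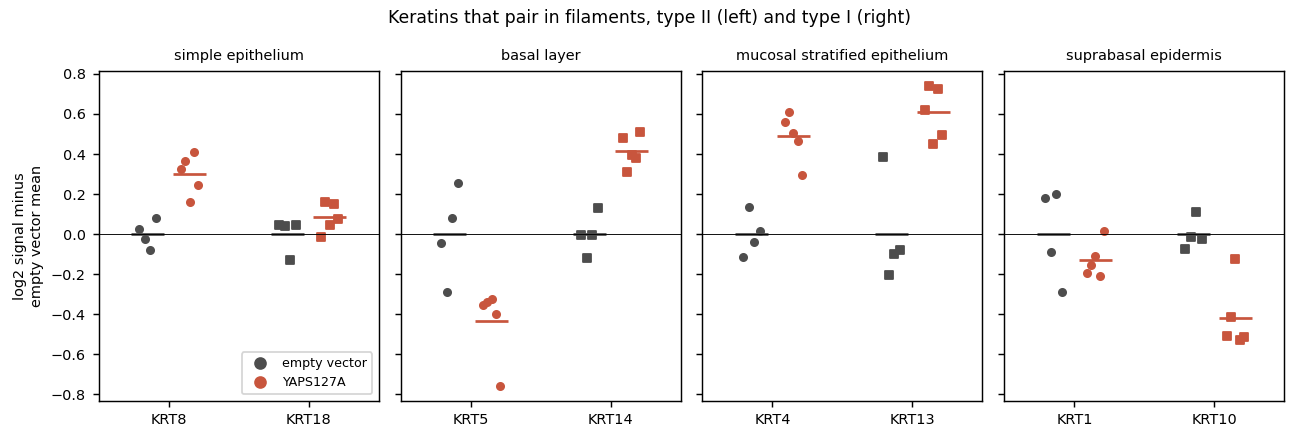
Log2 signal minus the empty vector mean for 4 known filament pairs, type II on the left of each panel (circles) and type I on the right (squares), with a point for each array and a line at each group mean. KRT5 lies lower and KRT14 higher with YAPS127A, and KRT4 and KRT13 both lie higher.

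The other brighter keratins of stratified epithelium did not pass. KRT16, a keratin induced in wounded and hyperproliferative epithelium, was at 6.04 ± 0.21 (SD, n = 4) and 6.30 ± 0.12 (SD, n = 5), a difference of +0.26 (adjusted p = 0.0931). It was called without empty vector replicate 4 (+0.34, adjusted p = 0.0289) and with the replicate block (+0.28, adjusted p = 0.0431). KRT3, a keratin of the cornea, was at 7.78 ± 0.20 (SD, n = 4) and 7.85 ± 0.14 (SD, n = 5). The 11 keratins of the stratified and other epithelial classes that did not pass ranged from -0.15 to +0.26, and their empty vector means from 3.32 to 7.78.

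None of the 19 keratin genes of hair and hair follicle sheath was called in limma. Most of them lie at or below the median of all probe sets, where 7.2% of all genes were called. Above it 41.2% were called. Their differences ran from -0.05 to +0.35. Before adjustment, 3 of them (KRT31, KRT32 and KRT33B) lay under the threshold of 0.05. KRT33B, a hair keratin, was at 6.06 ± 0.25 (SD, n = 4) and 6.37 ± 0.10 (SD, n = 5). KRT32, another hair keratin, differed by +0.35 (adjusted p = 0.0584). Some of these genes were called under other settings. KRT32 was called with array weights (+0.35), as the mean over probe sets (+0.35), without YAPS127A replicate 2 (+0.42) and without empty vector replicate 2 (+0.42). KRT31 was called without YAPS127A replicate 1 (+0.27), and KRT33B without empty vector replicate 2 (+0.39). KRT33A (8.15 and 8.14), KRT83 (6.46 and 6.46), KRT72 (6.26 and 6.24) and KRT73 (5.97 and 5.92) had almost the same mean in both groups. KRT33A and KRT83 belong to hair and KRT72 and KRT73 to its sheath.

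By type, 2 of 24 type I genes rose and 5 fell, while 3 of 20 type II genes rose and 1 fell. The shares called were 29.2% and 20%, against 28.7% of all genes. The difference between the types was not tested. Genes around the clusters were read in the same way. Around the type I cluster on chromosome 17, over 50 neighbouring genes with a signal above the median, the median deviation from the empty vector mean was -0.14 ± 0.02 (SD, n = 5) with YAPS127A and -0.01 ± 0.01 (SD, n = 4) with the empty vector, whose arrays lie near 0 because they were the reference. Of these neighbours 4 rose and 18 fell, while 41.2% of all genes above the median were called, 2625 higher and 2527 lower. Around the type II cluster on chromosome 12, 51 neighbours differed by -0.02, 6 higher and 4 lower. Elsewhere, the neighbours of EHF, an epithelial transcription factor described with the lists, differed by -0.37 and those of DSC2, a desmosomal cadherin, by +0.01. How common such shifts are over all genes was not tested. What part the shift has in the keratin values was not tested.

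With the median of the neighbours subtracted on each array, all 11 called keratins kept their call and direction. KRT222 was then at -2.59, KRT23 at -1.16, KRT15 at -0.30 and KRT10 at -0.29. KRT20, at -0.22, was the call closest to the threshold (adjusted p = 0.0474), and for KRT10 1 of the other probe sets no longer passed (-0.20). KRT16, KRT31, KRT32, KRT33B and KRT35, all on chromosome 17, were added as higher, so that 10 keratins were higher and 6 lower. Except KRT16 and KRT33B these additions are dim.

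**Figure D4:**
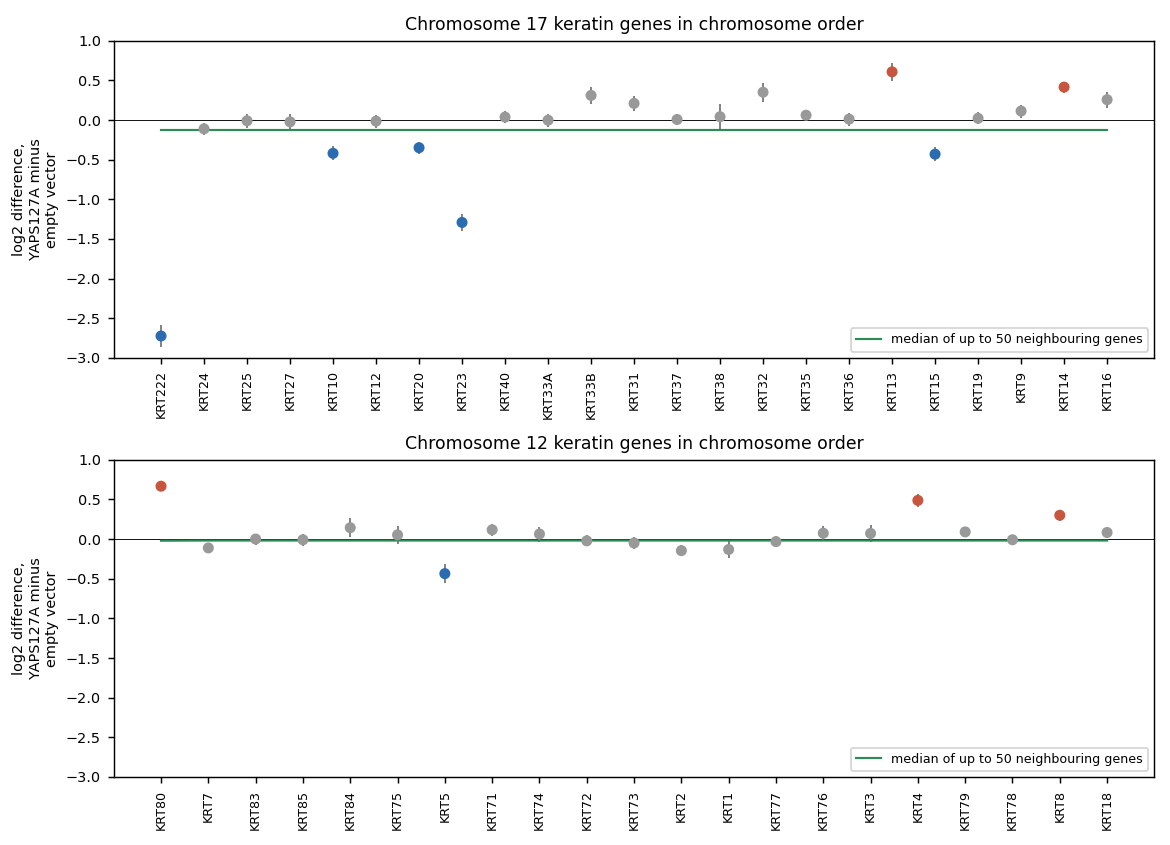
Log2 difference (YAPS127A minus empty vector, ± SE) of each keratin gene in chromosome order (red higher, blue lower, grey not called), with the median difference of its neighbouring genes as a green line. The green line lies at -0.13 along the chromosome 17 cluster and at -0.02 along the chromosome 12 cluster.

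Genes whose products work with keratins were taken as lists. Of 25 measured partners of the keratin network (desmosome, hemidesmosome and plakin genes and keratin-binding proteins), 5 rose, 4 fell and 16 did not pass, or 36% called, with a median of +0.02. Of the 25, 23 lay above the median, where 41.2% of all genes were called. DSC2, a desmosomal cadherin, fell by 1.62 (SE 0.07, adjusted p = 1.65e-08), from 9.75 to 8.14, and the related DSC3 fell by 1.02. JUP, the plakoglobin that links desmosomal cadherins to the keratin anchor, fell by 0.58. PPL, a plakin that binds keratins at the cell border, rose by 1.15 (SE 0.12, adjusted p = 2.46e-05), from 9.48 to 10.63, with neighbours higher by 0.36.

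Of 16 measured genes of squamous differentiation, 4 rose, 1 fell and 11 did not pass, with a median of +0.14, and only 4 of the 16 had a mean above the median of all probe sets in either group. The share called was 31.2%, against 28.7% of all genes, 41.2% of those above that median and 7.2% of those at or below it. With dim probe sets left out 2 were called, since FLG, CRCT1 and TGM1 lay below the median in both groups. FLG, which aggregates keratin filaments in skin, rose by 1.78 (SE 0.19, adjusted p = 2.89e-05) from 3.395 to 5.18. CRCT1 rose by 1.15, and TGM1, a cross-linking enzyme of the cornified envelope, by 0.98. SPRR3, an envelope precursor, fell by 1.94 from 6.56 to 4.62. Of 15 measured transcription factors, listed as possible regulators of keratin genes and not all particular to epithelium, 2 rose, 5 fell and 8 did not pass. Their median was -0.14. The share called was 46.7%, and 12 of the 15 lay above the median, where 41.2% of all genes were called. EHF (-0.72) and ELF3 (-0.66), epithelial ETS factors, and KLF4 (-0.51), a factor of the epithelial barrier, fell. KLF5, a factor of basal and gut epithelium, rose by 0.28, less than its neighbours (+0.39).

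Epithelial markers gave a high signal in both groups. The 6 cholangiocyte markers had empty vector means between 12.89 and 14.26. KRT7, KRT8, KRT18 and KRT19 are among these markers, so they are not evidence separate from the keratins. The others were EPCAM, at 13.02 with the empty vector and 12.96 with YAPS127A, and SOX9, at 13.09 and 12.84. SOX9, a transcription factor of the bile duct, fell by 0.25 (adjusted p = 0.0182). Of other cell types, 0 of 4 hepatocyte and 0 of 3 endothelial markers were called in limma, where 28.7% of all genes were called. Only 1 marker of each of these lists lay above the median of all probe sets, and 7.2% of all genes at or below it were called. The only leukocyte marker called was CD14, which was lower (-0.45). Among 6 fibroblast markers LUM rose by 1.45 and COL1A1 fell by 0.70. The summed fibroblast marker signal was 9.12 to 9.29 with the empty vector and 9.35 to 9.81 with YAPS127A (log2), and its part in the keratin values was not tested. VIM, the intermediate filament protein of mesenchymal cells, rose from 8.26 ± 0.15 (SD, n = 4) to 12.40 ± 0.09 (SD, n = 5).

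RNA quality was read from the actin control probe sets, whose 3' minus 5' log2 difference was 0.98 to 1.69 with the empty vector and 0.89 to 1.58 with YAPS127A. The largest differences were those of empty vector replicate 3 (1.69) and YAPS127A replicate 1 (1.58). Without both arrays 10 keratin genes were called, 5 higher and 5 lower, and KRT5 was the gene lost (-0.43, adjusted p = 0.0690). With the actin difference as a covariate the 11 calls were kept in number and direction.

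**Figure D5:**
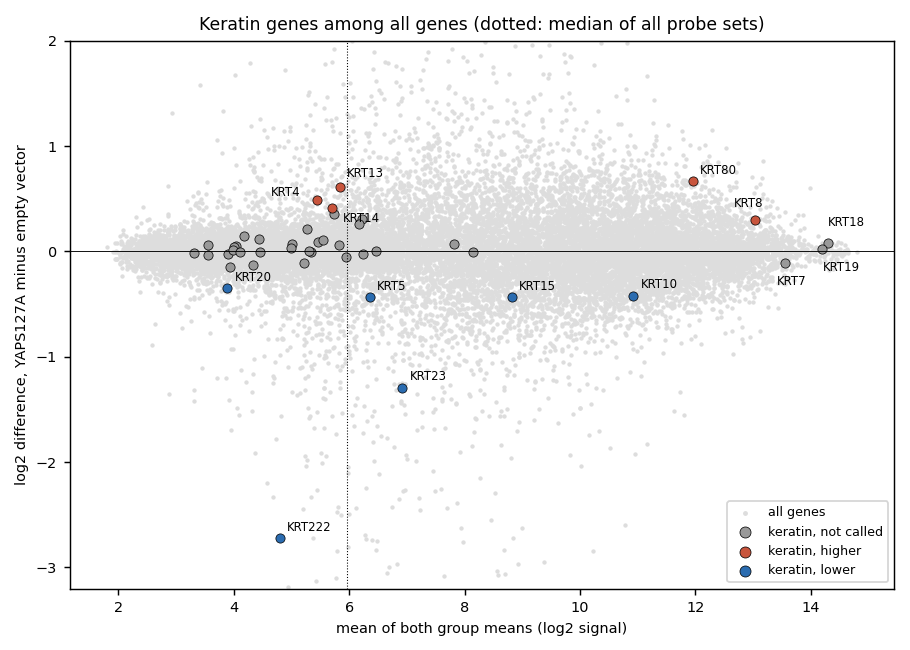
Log2 difference (YAPS127A minus empty vector) against the mean of both group means (log2 signal) for all genes (pale grey) and the 44 keratin genes (outlined). The dotted line is the median of all probe sets (5.96), and 75 genes lie outside the vertical range shown. KRT7, KRT8, KRT18 and KRT19 sit at the bright end with small differences, and KRT222 and KRT23 stand below the other keratins.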

How the data were processed

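Total RNA was amplified, labelled with biotin and read on single-colour arrays, per the labels. The authors deposited log2 signals per probe set, as judged from their range of 1.62 to 14.96. Background correction, summarisation and normalization: not given in the sources used here. Array medians lay between 5.95 and 5.97, and no further scaling was applied. There were 0 columns of other samples.

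Leaving aside 62 controls, all 54613 probe sets entered 1 linear model per probe set in limma 3.58.1 (R 4.3.3; lmFit, eBayes), with group as the only term and Benjamini-Hochberg adjustment over all of them (threshold 0.05, 11.4 degrees of freedom). In the platform annotation 41091 probe sets had 1 gene symbol, 1801 had several and 11721 had none. Current RefSeq symbols were taken by gene ID for 41037. Errors beside differences are SE and beside levels SD.

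Members and lists were chosen with earlier results of these data known. Named genes are KRT7, KRT8, KRT18 and KRT19, every keratin with a called probe set, other keratins above the median, up to 4 members of each list by p, and VIM. KRT1, KRT24, KRT31, KRT32, KRT35, KRT10-AS1, EPCAM, SOX9, LUM, COL1A1 and CD14 were added after their values were seen. Neighbours are up to 25 genes on each side with a signal above the median, keratin and keratin-associated protein genes not counted. The alternatives were other normalization, centring, filters, eBayes settings, array weights, a replicate block, left-out arrays, actin terms and other choices of probe set. A permutation test planned for the neighbours' shift was set aside, since the deviations were centred on 1 of the groups compared. A pseudocount was not needed on a log scale.

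On simulated data for this comparison (54613 probe sets, 50 changed at each size) the share recovered was 4% for log2 changes of 0.25, 58% for 0.5, 98% for 1 and 100% for 2. There were 6 false calls. The simulation held far fewer changed probe sets than the 13052 called in the data, which makes its Benjamini-Hochberg cut-off stricter. Its shares for small changes may therefore be lower than the recovery in the real comparison. Same-numbered arrays had correlations of deviations between -0.25 and 0.04, so the numbers were not taken to pair samples.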

Additional observations from a re-analysis of the deposited data

Results flagged for a closer look

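In 4 of 42 groups of arrays tested, 1 array stood apart by Dixon's criterion, which chance meets in about 1 of 20 groups. KRT18 on empty vector replicate 3 was at 14.13, below the other 3 at 14.30 to 14.31, and that array also had the largest actin 3' to 5' difference. KRT10 on YAPS127A replicate 3 was at 11.005, above the others at 10.60 to 10.72. KRT20 on YAPS127A replicate 4 was at 3.85, above the others at 3.66 to 3.70. KRT5 on YAPS127A replicate 5 was at 5.81, below the others at 6.17 to 6.25. The causes were not tested.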

How the results depend on the processing

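The keratin genes called numbered 10 to 16 (11 as reported) under all alternatives other than the 2 filters that follow. Leaving out probe sets ending in _s_at or _x_at left 36 keratin genes measured and 6 called, since every probe set of KRT8, KRT10, KRT13, KRT23 and KRT4 carries such a suffix. Over all probe sets 8415 of 39114 were then called, against 13052 of 54613. With dim probe sets left out, 9 of the 18 keratin genes measured were called, and the squamous genes called fell to 2 from 5. With each array left out in turn, 10 to 13 keratin genes were called. KRT7 was called with trend and robust eBayes (-0.11). At adjusted p under 0.01 there were 10 called. No log2 difference was called in opposite directions under 2 settings. KRT33B was called with dim probe sets left out, as the mean over probe sets, with the neighbours' median removed and without empty vector replicate 2 (0.31, 0.31, 0.44 and 0.39). With the replicate block 11 keratin genes were called, KRT16 gained and KRT5 lost. YAPS127A replicate 5 has no same-numbered empty vector array, so the block takes it out of the comparison. The KRT5 difference was -0.355 both with the block and without that array, where KRT5 kept its call (adjusted p = 0.0342 in limma). The shift around the chromosome 17 cluster was -0.14 to -0.12 with each array left out, an alternative chosen after seeing the data. The number of arrays, and a signal at or below the median of all probe sets in 26 of 44 genes, limit what could be called.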
